A study of Mus musculus with 8 samples.

Results

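The promoters described here are those of unperturbed cultured mouse spermatogonia, read from the 4 control-F1 germline stem (GS) cell lines of a series of 8 lines. The lines came from F1 mice of natural mating (control-F1, lines 29, 37, 44 and 45) or from F1 mice born after intracytoplasmic sperm injection, ICSI (ICSI-F1, lines 11, 17, 20 and 21). All lines were labelled B6, wild type and untreated, and all were grown with FGF2 and GDNF in the same medium. Each line gave 1 library of reduced representation bisulfite sequencing (RRBS), and the labels do not say whether the lines of a group came from different mice. A promoter was the 1 kb upstream of the listed start of a gene. Of 9224 genes with any measured site, the 7278 with 5 or more sites were kept, and these held 198978 of 203645 sites, with a median of 19 sites per promoter. The level of a site was the percent of its reads that kept a cytosine. The level of a promoter was the mean over its sites in each line, then the mean over the 4 lines. Many values are given with the SD between lines or with the value of each line, and some, mainly of part of the sites, without. The lines had 16184934 to 18017992 reads over these promoters after the authors had scaled them to one another, with a median of 77 to 89 scaled reads per site and 1427 to 1611 per promoter, so single sites are less precise than promoters. Promoters under 10% were called low, those at 80% or more high, and those between intermediate.

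DNA methylation in mammals sits mostly on the cytosine of CpG pairs. Promoters in CpG islands, where such pairs are dense, usually stay free of it, whereas CpG-poor promoters of genes used in other tissues often carry it. Germ cells erase most methylation as primordial germ cells and lay it down again before birth in males, so that spermatogonia hold an established male pattern, with the paternal marks of imprinted genes. A set of germ cell genes is silenced by promoter methylation in somatic cells and is free of it in the germ line. RRBS cuts DNA with MspI, whose recognition sequence CCGG holds a CpG, and reads the fragments inward from their cut ends after bisulfite has turned unmethylated cytosines into uracil.

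The sequences of 6 promoters are shown because each stands for a pattern that recurred: a low germ cell promoter (Dazl), a promoter whose strands disagreed inside the MspI sequence (Lin28a), a high promoter (Sox10), promoters that were high far from the start and low near it (Mettl22, H19), and a promoter that was even along its length but differed between lines (Cpsf4l). They were read from RefSeq GRCm38.p6, the assembly of mm10, 5′ to 3′ on the strand of the gene. Capitals mark the measured CpGs, and where the CpG lay inside the MspI sequence all of its bases are in capitals.
Dazl, chr17:50294107-50294156, minus strand: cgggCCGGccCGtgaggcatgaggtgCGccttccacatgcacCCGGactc
Lin28a, chr4:134019451-134019541, minus strand: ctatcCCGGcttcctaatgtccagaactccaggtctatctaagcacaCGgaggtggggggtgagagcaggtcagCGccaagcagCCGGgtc
Sox10, chr15:79166050-79166185, minus strand: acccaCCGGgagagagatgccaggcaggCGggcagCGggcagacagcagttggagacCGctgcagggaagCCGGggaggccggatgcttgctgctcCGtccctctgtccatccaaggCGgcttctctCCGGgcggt
Mettl22 far, chr16:8469843-8469978, plus strand: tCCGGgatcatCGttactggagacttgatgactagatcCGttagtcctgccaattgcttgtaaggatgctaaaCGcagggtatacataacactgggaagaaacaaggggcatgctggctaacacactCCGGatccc
Mettl22 near, chr16:8470728-8470784, plus strand: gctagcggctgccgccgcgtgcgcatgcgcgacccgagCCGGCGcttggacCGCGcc
Cpsf4l, chr11:113710517-113710679, minus strand: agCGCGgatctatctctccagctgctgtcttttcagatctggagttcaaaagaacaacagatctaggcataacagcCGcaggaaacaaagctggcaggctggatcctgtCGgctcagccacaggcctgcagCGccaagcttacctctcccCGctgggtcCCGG
H19 near, chr7:142578158-142578248, minus strand: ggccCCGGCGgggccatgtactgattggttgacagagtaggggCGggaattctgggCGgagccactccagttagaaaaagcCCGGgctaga
H19 far, chr7:142578852-142578870, minus strand: tataCGcaCGcaCGtggct

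By the mean of the 4 control-F1 lines, 5809 promoters were low (79.8%), 1191 were intermediate (16.4%) and 278 were high (3.82%). Most intermediate promoters lay just above the lower limit, with 876 of them between 10% and 20%, and 233 of the high promoters lay at 90% or more. The median promoter level was 4.25% in line 29, 4.40% in line 37, 7.33% in line 44 and 6.73% in line 45. Low promoters numbered 6097, 6128, 5006 and 5319 in these lines, and intermediate promoters 902, 883, 1966 and 1676. High promoters numbered 279, 267, 306 and 283, a narrower spread. Lines 44 and 45 thus had more promoters above 10% than lines 29 and 37. The ICSI-F1 lines split in the same way. Lines 11 and 17 had 6150 and 5936 low promoters, and lines 20 and 21 had 5214 and 5535. The source and description fields of the labels are filled in differently for lines 29, 37, 11 and 17 and for lines 44, 45, 20 and 21. From this library set 1 (the former lines) and library set 2 (the latter) were inferred, since the labels name no batch.

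The sites differed by whether they lay inside the MspI sequence. In low promoters, the 26655 sites inside CCGG had a mean level of 21.1% ± 2.54 (SD, n = 4) and the 154258 other sites 2.33% ± 1.21. In intermediate promoters the means were 34.8% ± 4.40 at 5143 sites inside and 8.90% ± 2.05 at 10601 sites outside. In high promoters they were close, at 94.5% ± 1.30 for 760 sites inside and 94.0% ± 1.17 for 1561 sites outside. The gap in low promoters was present in every line, with 19.8%, 18.2%, 23.4% and 23.0% inside against 1.06%, 1.58%, 3.62% and 3.06% outside in lines 29, 37, 44 and 45. Within CpG islands alone, 21407 sites inside CCGG had 22.3% ± 2.50 and 133266 sites outside had 2.28% ± 1.19.

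Inside the MspI sequence the strands of the same CpG often disagreed. Among 10917 CpGs inside CCGG that were read on both strands, the levels of the strands differed by more than 20 points at 5532 (50.7%) and by more than 50 points at 2766. Among 69822 CpGs outside it, 12 differed by more than 20 points (0.0172%) and 0 by more than 50. The level differed with the side on which the next CCGG lay within 40 to 220 bp, counted along the strand that was read. In low promoters, sites with the next CCGG on the 3′ side alone had 10.5% ± 0.886 (10066 sites), those with it on both sides 23.7% ± 2.72 (9404 sites), and those with it on the 5′ side alone 43.7% ± 6.37 (4330 sites). Sites with it on neither side had 15.4% ± 1.99 (2855 sites), also above the 2.33% outside CCGG. In high promoters the same kinds of site had 93.8% ± 1.36, 94.7% ± 0.917 and 96.8% ± 1.14. The Lin28a window shows this at single bases: at the first CCGG, 694 bp upstream, the gene strand had 3.65% ± 4.08 and the other strand 83.9% ± 14.4. At the second CCGG of the window the order was turned, with 89.9% ± 8.20 on the gene strand and 3.24% ± 3.68 on the other. The 4 measured strands of the CpGs between them had 2.01% to 5.06%. In the Dazl window the last CCGG had 23.3% ± 7.26 and 25.6% ± 7.54 on its strands, and the CpGs outside CCGG had 0.641% to 3.54%. What sets the level of these sites was not tested. Values below use all sites unless they are said to be outside CCGG, a setting chosen after the values were seen and given for the classes, the lists and many of the named promoters.

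**Figure D1:**
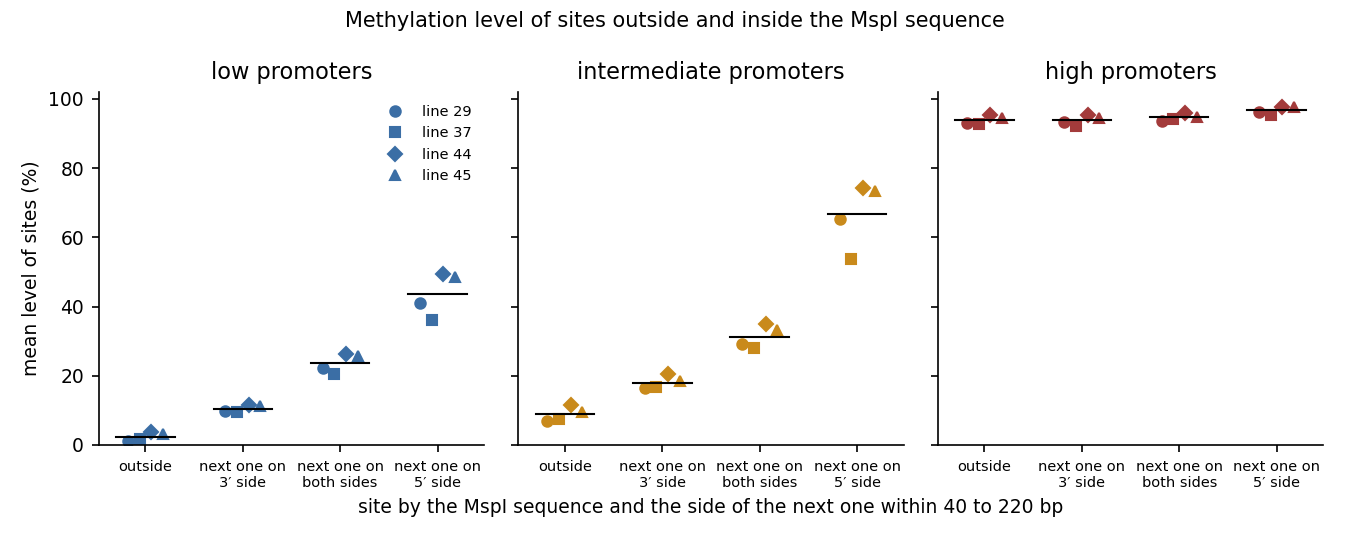
Mean methylation level (%) of sites in low, intermediate and high promoters, for sites outside the MspI sequence and for sites inside it by the side of the next such sequence within 40 to 220 bp. Points are the 4 control-F1 lines and bars their means. In low promoters the means run from 2.33% outside to 43.7% with the next sequence on the 5′ side alone, and in high promoters from 93.8% to 96.8%.

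With the sites inside CCGG left out, 6489 promoters still had 5 or more sites, and 6174 of them were low (95.1%), 178 intermediate (2.74%) and 137 high (2.11%). With all their sites, the same 6489 promoters had been 5529 low, 822 intermediate and 138 high. All 5529 low promoters stayed low and 137 of 138 high promoters stayed high, whereas 645 of the 822 intermediate promoters (78.5%) became low and 177 stayed intermediate. Among the 156 promoters at 20% or more, 19 became low. The low and high classes therefore held under this setting for the promoters that could still be measured. Most of the intermediate class between 10% and 20% did not. This puts the low class to little test, since sites inside CCGG were above those outside in 6505 of 6863 promoters with both kinds. Too few sites were left outside CCGG at 140 of the 278 high promoters and at 280 of the 5809 low ones.

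**Figure D2:**
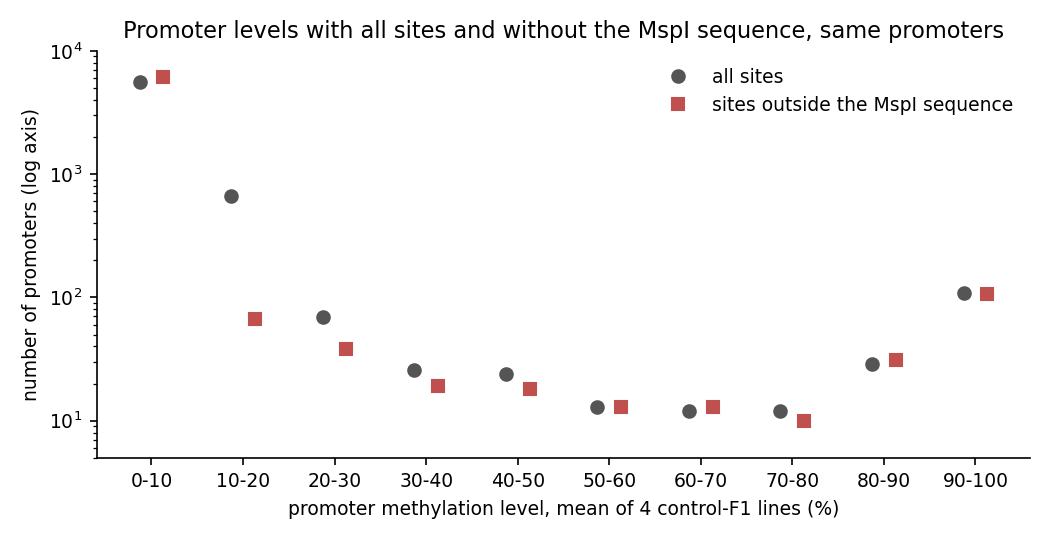
Number of promoters (log axis) by methylation level in bins of 10 points, mean of the 4 control-F1 lines, for the 6489 promoters with 5 or more sites outside the MspI sequence. Circles use all sites and squares the sites outside that sequence. The bin from 10% to 20% holds 666 promoters with all sites and 67 without, while the bin from 90% to 100% holds 109 and 106.

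All 12 measured promoters of the germ cell and piRNA pathway list were under 10%, with a median of 5.37% against 5.68% over all promoters, of which 79.8% were low. Hormad1, a meiotic chromosome axis protein, had 8.33% ± 1.80 over 48 sites. Dazl, an RNA-binding protein needed for germ cell development, had 7.60% in line 29, 7.10% in line 37, 7.97% in line 44 and 12.2% in line 45. It was under 10% in lines 29, 37 and 44 and above it in line 45, and outside CCGG the mean was 2.57% ± 2.29. Ddx4, the germ cell RNA helicase also called Vasa, had 6.66% in line 29, 4.31% in line 37, 4.19% in line 44 and 4.48% in line 45. Asz1, a mitochondrial protein of the piRNA pathway, had 1.88% ± 1.18. Mael, which acts in transposon silencing, had 0.208% in line 29, 10.1% in line 37, 1.61% in line 44 and 1.76% in line 45, so line 37 stood above the other lines. Slc25a31, the ADP/ATP carrier of germ cells, had 9.55% ± 2.16 over 38 sites and 4.55% ± 3.16 outside CCGG, and Rbm46, an RNA-binding protein of early meiosis, had 4.62% ± 0.937. Over the 10 members still measured outside CCGG, 10 were low with a median of 4.13%, against 2.37% over all promoters, of which 95.1% were low.

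Of 16 measured promoters of meiosis genes, 14 were low (87.5%, against 79.8% of all promoters), 2 intermediate and 0 high, with a median of 3.88% against 5.68%. Spdya, an activator of cyclin-dependent kinases, had 3.22% ± 0.845, Mybl1, the transcription factor of pachytene genes, had 5.53% ± 1.85, and Psmc3ip, a partner of the meiotic recombinases, had 8.89% ± 2.43. Sycp2, a protein of the synaptonemal complex, was intermediate with 16.9% in line 29, 27.9% in line 37, 33.3% in line 44 and 31.6% in line 45, and it stayed intermediate outside CCGG at 28% ± 8.37. Prdm9, the methyltransferase that marks recombination hotspots, had 17.5% ± 1.73 with all sites and 3.36% ± 2.87 at its 4 sites outside CCGG. Of 7 promoters of spermatid and sperm genes, 6 were low, and Odf2, a sperm tail protein, had 18.4% ± 4.74 with all sites and 1.82% at 2 sites outside CCGG. The 6 spermatid promoters with enough sites outside CCGG were all low, as were 12 of 13 meiosis promoters, where 95.1% of all promoters were low.

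Among 17 measured stem cell and progenitor genes, 12 were low (70.6%, against 79.8% of all promoters), 5 intermediate and 0 high, with a median of 7.04% against 5.68%. The low members with most sites were Erbb3, a receptor of the EGF family (5.90% ± 0.946, 104 sites), Foxo1, a transcription factor of stem cell maintenance (2.49% ± 1.09, 86 sites), and Taf4b, a germ cell subunit of the TFIID complex (6.63% ± 0.910, 77 sites). Lin28a, an RNA-binding protein of undifferentiated spermatogonia, had 23.2% in line 29, 21.4% in line 37, 25.2% in line 44 and 26.5% in line 45 over 8 sites. Its 4 sites inside CCGG averaged 45.2% and its 4 sites outside 2.94% ± 1.95, as in the window printed above. Cdh1, the adhesion molecule E-cadherin, had 17.4% ± 2.72 with all sites and 1.90% ± 1.91 outside CCGG. Pax7 had 11.6% ± 0.857 and 4.99% ± 0.791, and Cxcr4, the receptor of the niche chemokine CXCL12, had 10.1% ± 4.05 and 2.89% ± 5.02. Epcam had 10.1% ± 1.43, and 3.90% at its 2 sites outside CCGG. All 13 members with 5 or more sites outside CCGG were low there, as were 95.1% of all promoters, with a median of 2.12% against 2.37%.

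The low share was 62.5% in the list of differentiation, 70% in that of pluripotency, 72.7% in that of DNA methylation and 75% in that of the niche, against 79.8% of all promoters. None of these short lists had a high promoter, a class that held 3.82% of all. Of 8 measured differentiation genes 5 were low and 3 intermediate, namely Crabp1, a retinoic acid binding protein, at 14.3% ± 1.10, Rhox13, a homeobox gene on the X chromosome, at 12.8% ± 2.26, and Kit, the receptor that marks differentiating spermatogonia, at 10.96% ± 3.71. Outside CCGG these had 3.30%, 5.19% and 2.45%. Of 10 pluripotency genes 7 were low, and the others were Lin28a, Tcl1 at 20.3% ± 2.33 and Klf4 at 12.03% ± 5.37, which had 6.91% and 3.74% outside CCGG. All 8 pluripotency promoters that could be measured outside CCGG were low. Of 11 genes of DNA methylation and demethylation 8 were low, while Uhrf1, which brings the maintenance methyltransferase to replicated DNA, had 14.3% ± 5.70, Setdb1, a histone methyltransferase, had 14% ± 1.99, and Mbd3 had 12.7% ± 4.59. At sites outside CCGG they had 3.33%, 3.54% and 2.42%. Of 20 genes of growth factors and receptors of the niche 15 were low. The highest was Tsc1, a brake on mTOR signalling, at 21.3% ± 5.82, followed by Wnt5a at 15.4% ± 2.68 and Kitl, the ligand of Kit, at 11.6% ± 3.83. Outside CCGG these had 3.596%, 9.81% and 2.31%, and all 16 members that could be measured there were low.

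Of the promoters of regulators of somatic lineages 30 of 41 were low (73.2%, against 79.8% of all promoters), 9 intermediate and 2 high (4.88%, against 3.82%), with a median of 7.36%. The intermediate members with the highest levels were Foxa2, an endoderm factor, with 19.97% in line 29, 11.8% in line 37, 36.2% in line 44 and 27.3% in line 45, Lhx2 with 22.2% ± 2.02, Tbx20 with 21.6% ± 3.57 and Tbx4, a hindlimb factor, with 20.6% ± 3.54. Outside CCGG Foxa2 had 9.69% ± 5.62, Lhx2 3.07%, Tbx20 1.43% and Tbx4 13.8% ± 4.98. Of 37 members measured there 34 were low, 2 intermediate and 1 high, where 95.1% of all promoters were low. Of 13 Hox promoters 11 were low and 2 intermediate, and all 12 with enough sites outside CCGG were low. The high members were Sox10, the neural crest factor, and Gata4, the cardiac and Sertoli cell factor. Sox10 (ENSMUSG00000033006) had 97.99% in line 29, 97.9% in line 37, 97.7% in line 44 and 96.4% in line 45, and all of its 12 sites lay 816 to 939 bp upstream, in the window printed above. Gata4 (ENSMUSG00000021944) had 96.1% in line 29, 90.6% in line 37, 97.96% in line 44 and 94.7% in line 45 over 6 sites. Neither promoter had a site in an island, and the lines differed by 1.57 points at Sox10 and 7.39 points at Gata4.

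Housekeeping genes were near the background, with 16 of 20 low (80%, against 79.8% of all promoters) and a median of 6.07% against 5.68%. The intermediate members were Vars, a tRNA synthetase, with 11.2% in line 29, 17.6% in line 37, 28.2% in line 44 and 27.9% in line 45 over 59 sites, Actb, the cytoskeletal actin, with 13.97% ± 3.07, and Rpl13a, a ribosomal protein, with 10.5% ± 5.57. Outside CCGG Vars had 18.5% ± 8.25, Actb 10.2% ± 2.76 and Rpl13a 4.05%. Within 500 bp of the start Vars and Actb were low, at 4.02% and 2.77%, and Actb was also low with 30 or more scaled reads per site (8.93%) and from summed reads (8.82%). At Vars the lines of library set 2 were both above the lines of set 1. The high member was Ywhaz, a 14-3-3 protein, with 93.4% in line 29, 93.04% in line 37, 95.7% in line 44 and 94.01% in line 45 at 5 sites, and this gene has other starts more than 1000 bp from the listed one.

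Low promoters were also found outside islands. A share of 20.1% of the low promoters (1170) had 0 sites in an island, less than the 28.7% of all promoters (2091). The named ones with most sites were Nr4a1, an immediate early nuclear receptor (2.99% ± 1.53, 83 sites), Fat3, an atypical cadherin (6.54% ± 1.56, 70 sites), Golga1, a Golgi protein (6.43% ± 1.25, 69 sites), and Ptpn21, a tyrosine phosphatase (2.42% ± 1.02, 69 sites). Prr16 had 3.70% ± 1.36 (70 sites), Chmp7 6.15% ± 2.72 (68 sites), Ptprd 2.75% ± 0.570 (67 sites) and Ankrd6 5.07% ± 0.793 (63 sites). These promoters were chosen for their many sites, where low promoters had a median of 22, and their CpG density is not given. They do not stand for CpG-poor promoters.

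High promoters lay outside CpG islands almost without exception. Of 278, 277 had 0 island sites, and 87.9% of their sites lay outside islands, shores and shelves, against 8.18% of the sites of low promoters. The exception was Gm49980, an unnamed gene on chromosome 18, with 95.01% ± 3.46 over 13 sites all in an island. No high promoter of a named gene had all its sites in islands. The 1 kb upstream of high promoters held a median of 15 CpGs against 25 in intermediate and 38 in low promoters, and the observed over expected ratio of CpG was 0.260, 0.417 and 0.576. High promoters also had fewer measured sites (median 7, against 10 and 22), which lay further from the start (median distance 375 bp, against 146 and 90 bp). Repeat-masked sequence held 19.6% of the sites of high promoters, 5.26% of those of intermediate and 3.002% of those of low promoters, and most sites were masked in 15.5%, 2.85% and 0.757% of the promoters. Other annotated starts more than 1000 bp away were listed for 34.9% of genes with high, 58.2% with intermediate and 65.3% with low promoters. Of 139 promoters on the X chromosome 121 were low, 17 intermediate and 1 high. They made up 2.08% of low, 1.43% of intermediate and 0.360% of high promoters, against 1.91% of all promoters. All 8 measured promoters of the Y chromosome were intermediate, a class that held 16.4% of all promoters. Ddx3y had 10.02% ± 2.07 and Kdm5d 10.6% ± 8.36, just above the limit of 10%, and both were low outside CCGG. The 6 unnamed genes from Gm29349 to Gm29274 had 26.7% to 75.3% and stayed intermediate. Outside CCGG, the 137 high promoters likewise had 136 without an island site and 21.4% of sites in masked sequence.

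Short motifs of promoters were counted from 250 bp before to 50 bp after the listed start, on both strands. The GC box GGGCGG lay in 75.1% of low, 54.5% of intermediate and 10.4% of high promoters, against 69.3% of all. The TATA motif TATAAA ran the other way, in 4.96%, 8.98% and 17.6%, against 6.10% of all. The CCAAT motif, which holds no CpG, was found in 36.8%, 38.4% and 34.9%. Matches of different motifs that overlap were each counted, and a match of these letters is a description, not a binding site.

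The genes behind high promoters were often noncoding or unnamed. Of 457 lincRNA promoters 106 were high (23.2%), against 154 of 6706 protein-coding promoters (2.30%). Unnamed Gm genes contributed 105 of the 278 and Rik transcripts 21, so that 152 had a gene name. Of 8 olfactory receptors measured, 4 were high (50%, against 3.82% of all promoters), 3 intermediate and 1 low. Olfr1344 had 93.3% in line 29, 96.8% in line 37, 99.1% in line 44 and 98.6% in line 45, Olfr978 95.8% ± 2.73, Olfr1298 99.2% in line 29, 95.6% in line 37, 61.9% in line 44 and 97.3% in line 45, and Olfr212 89.7% in line 29, 94.6% in line 37, 59.3% in line 44 and 89.05% in line 45. Line 44 was the lowest at Olfr1298 and at Olfr212. All sites of Olfr1344, Olfr978 and Olfr1298 lay in repeat-masked sequence. Of 147 zinc finger genes 1 was high (0.680%), namely Zfp872 at 93.6% ± 4.66. High promoters were found at 7 of 133 solute carriers (5.26%), near the 3.82% of all promoters. The same class held 2 of 18 interleukins, chemokines and their receptors (11.1%).

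The following high promoters were chosen after their values were seen, for the tissue in which the gene is known to act. This choice does not show how common high promoters were among genes of these tissues. Of the 18 measured interleukins, chemokines and their receptors, 8 were low (44.4%, against 79.8% of all promoters), 8 intermediate and 2 high. Among muscle genes, Acta1, skeletal actin, had 94.9% ± 2.44, Tnni2, fast troponin I, had 97.3% ± 0.871, Casq2, cardiac calsequestrin, had 96.3% ± 1.26, and Csrp3, a Z-disc protein, had 93.97% ± 2.06. Genes of liver, kidney and fat included Pck1 of gluconeogenesis at 98.8% ± 1.57, Slc12a1, the loop diuretic target of the kidney, at 97.8% ± 1.30, Apoc2 of lipoproteins at 96.6% ± 2.01, and Retn, resistin, at 97.4% ± 1.26. Among blood cell genes, Trac, the constant part of the T cell receptor alpha chain, had 96.8% ± 1.91, Rhd had 98.9% ± 0.659, and the chemokine receptor Ccr4 had 91.7% ± 6.20. Ccl11, eotaxin, had 96.2% ± 2.42. The range over the 4 lines was 1.29 to 5.65 points at these genes other than Ccr4, which had 82.6% in line 29, 96.5% in line 37, 94.6% in line 44 and 93.1% in line 45, so its lowest line was line 29. Among the marker lists, Cd2, an adhesion molecule of T cells, had 95.4% in line 29, 75.3% in line 37, 97.5% in line 44 and 96.99% in line 45, and line 37 was below the other lines. Loxl1, an elastin crosslinking enzyme of fibroblasts, had 91.4% in line 29, 76.2% in line 37, 87.8% in line 44 and 89.1% in line 45.

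Genes used in all cells were also found among high promoters. Besides Ywhaz they were Rps10, a ribosomal protein (88.1% ± 2.82), Magoh of the exon junction complex (90.2% ± 8.04, with all sites in masked sequence) and Usp14, a proteasome deubiquitinase (97.3% ± 2.19), again chosen after their values were seen. Each of the 4 genes has another annotated start more than 1000 bp from the listed one. Such starts were listed for 34.9% of genes with high promoters and for 62.9% of all measured genes. Gata4 and Cd2, also high, have one too, whereas Sox10 and Loxl1 do not.

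The lists of other cells gave few measured members. Of 5 fibroblast and stromal markers 4 were low (80%, against 79.8% of all promoters) and Loxl1 was high. Of 9 Sertoli and Leydig cell markers 5 were low (55.6%), 3 intermediate and 1 high (Gata4). Over all promoters 3.82% were high, and each of these lists had a single high gene. Lhcgr, the luteinizing hormone receptor of Leydig cells, had 71.1% in line 29, 29.9% in line 37, 39.9% in line 44 and 24.2% in line 45 over 11 sites and 40.03% ± 22.95 outside CCGG. Cldn11, a tight junction protein of Sertoli cells, had 11.3% ± 1.67 and 5.54% outside CCGG. The 2 blood cell markers were Cd2 and Tbx21, a T cell factor, with 26.1% in line 29, 44.1% in line 37, 18.7% in line 44 and 19.2% in line 45. RNA of these lines was not analysed here, and the cell type was not tested, since most members of these lists were low, as were most promoters. A mixture of cells and partial methylation within cells cannot be told apart at an intermediate promoter.

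The intermediate promoters that remained outside CCGG fell into patterns along the sequence. Of the 178, 33 were stepped, with at least 1 site under 20% and 1 at 80% or more, and 33 were even, with all sites from 20% to under 80%. The other 112 had neither form. In all 33 stepped promoters the sites at 80% or more lay further from the start than those under 20%, at median distances of 850 bp and 57 bp. The range over the 4 lines was a median of 6.03 points in stepped promoters and 41.6 points in even ones. It passed 20 points in 2 of 33 stepped promoters (6.06%) and in 32 of 33 even ones (97.0%), against 50.6% of the 178. Site levels here are means of the same 4 lines, and a promoter whose lines lie far apart has sites of intermediate mean, so the forms are not independent of the range.

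**Figure D3:**
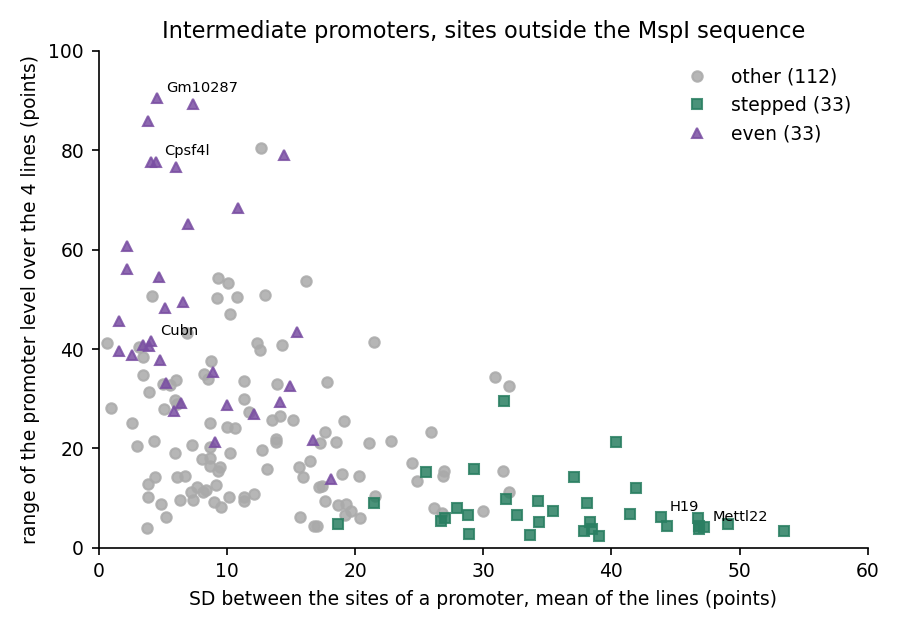
Each point is 1 of the 178 promoters intermediate at sites outside the MspI sequence, by the SD between its sites (points, x axis) and the range of its level over the 4 control-F1 lines (points, y axis). Squares are stepped, triangles even and circles other promoters. Stepped promoters have a median range of 6.03 points and even ones of 41.6 points.

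Mettl22, a protein methyltransferase (ENSMUSG00000039345), was stepped. Its far window had 84.6% to 98.2% at the sites outside CCGG, and its near window, within 60 bp of the start, had 1.38% to 3.27%. The level over all sites was 53.4% in line 29, 52.6% in line 37, 55.9% in line 44 and 51.2% in line 45. The lines agreed at this level, although none of the sites in the printed windows lay between 5% and 80%. Mia3, a cargo receptor of the endoplasmic reticulum, had 48.2% in line 29, 48.8% in line 37, 52.7% in line 44 and 52.3% in line 45, and its sites outside CCGG ran from 2.27% to 100%. Otop3, a proton channel, had 43.5% in line 29, 47.4% in line 37, 45.5% in line 44 and 45.02% in line 45, with sites from 2.71% to 97.6%. The other named promoters of steady intermediate level were BC004004 (51.3% ± 2.08), Mydgf (43.7% ± 2.63), Cldn4 (56.1% ± 3.26), H19, Mrps12 (46.4% ± 3.45), Ghr, the growth hormone receptor (42.9% ± 3.84), and Mettl7a2 (47.1% ± 3.94). Of these BC004004 had 17.5% and Ghr 6.86% outside CCGG, the latter at 2 sites.

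Over the class that was intermediate with all sites, the level of sites outside CCGG was higher further from the start. It was 5.12% ± 1.75 in the first 200 bp and 7.62% ± 2.07, 12.02% ± 2.28, 20.9% ± 3.14 and 29.1% ± 3.74 in the next bins of 200 bp. The first bin held sites of 852 promoters and the last of 139, so the bins do not hold the same promoters. In low promoters the level ran from 2.22% ± 1.14 to 3.24% ± 1.45, and in high promoters it stayed between 93.7% and 94.5%. Class was set by the mean level of a promoter, so the small change with distance in these classes is partly fixed by that choice. A promoter low near the start and high far from it would mostly be called intermediate. The bins of the low and high classes do not hold the same promoters either.

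**Figure D4:**
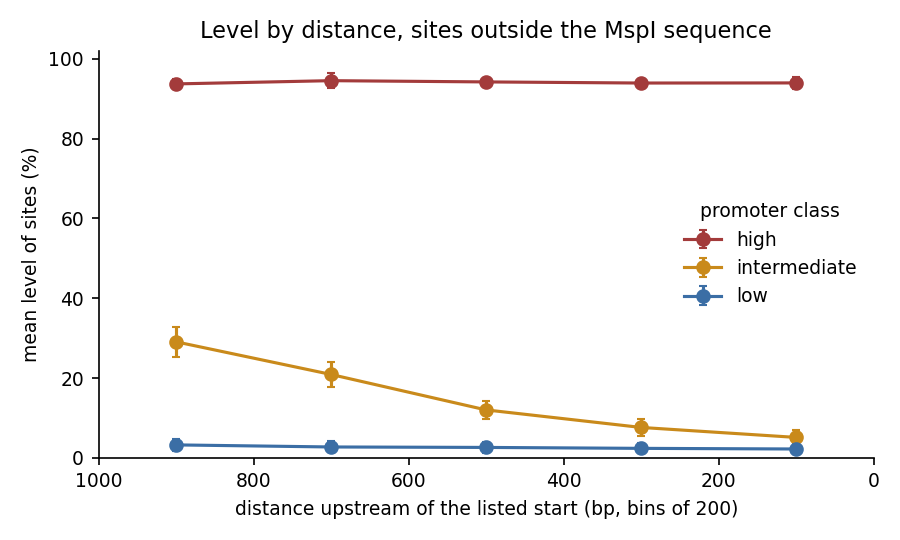
Mean methylation level (%) of sites outside the MspI sequence by distance upstream of the listed start (bp, bins of 200), for the 3 promoter classes. Points are means of the 4 control-F1 lines and bars the SD between lines. The intermediate class goes from 5.12% nearest the start (852 promoters) to 29.1% in the furthest bin (139 promoters).

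At the imprinted genes, 16 of 21 measured promoters were low (76.2%, against 79.8% of all promoters) and 5 intermediate, with a median of 4.75%. H19, the noncoding RNA whose control region carries paternal methylation, had 36.9% in line 29, 44.7% in line 37, 40.3% in line 44 and 39.2% in line 45 over 13 sites. Its near window had 0.917% to 10.1% outside CCGG, and its far window, 714 to 722 bp upstream, had 83.7% to 96.9%. Inside CCGG the near window ran from 1.97% to 98.5%. Meg3, the noncoding RNA of the Dlk1-Dio3 domain, had 14.1% in line 29, 40.3% in line 37, 11.1% in line 44 and 15.04% in line 45, so line 37 was above the others, and 12.98% ± 15.3 outside CCGG. Dio3, the deiodinase at the other end of that domain, was low with 3.75% ± 1.36 over 77 sites. Sfmbt2, Slc22a3 and Impact had 12.4% ± 4.30, 11.7% ± 3.30 and 10.7% ± 3.599, and 4.81%, 5.48% and 3.40% outside CCGG. Of the 20 imprinted promoters measured there 18 were low and 2 intermediate, where 95.1% of all promoters were low. These promoter windows are not the imprinting control regions themselves.

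The 4 lines placed 5419 of 7278 promoters in the same class as their mean (74.5%). The share was 79.0% of low, 49.6% of intermediate and 86.0% of high promoters. Outside CCGG it was 92.9% of 6489, with 94.4% of low, 48.3% of intermediate and 82.5% of high promoters. The median range over the lines was 4.33 points, and 3.73 points outside CCGG. A range over 20 points was found at 195 promoters (2.68%), among them 152 intermediate, 28 high and 15 low, and a range over 50 points at 28, all intermediate. Pearson's correlation across promoters, which are not independent replicates, was between 0.956 and 0.971 for the 6 pairs of lines, with the same promoters, genome and scaling behind each pair. The median absolute difference was 1.25 points between lines 29 and 37 and 1.59 points between lines 44 and 45, and 2.27 to 2.82 points for the 4 pairs across the library sets. By this difference pairs within a set were closer than pairs across sets. This did not hold for every measure, since the highest correlation was that of lines 37 and 45 (0.971), and lines 44 and 45 shared the class of 86.2% of promoters against 87.5% for lines 29 and 45.

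Of the 10 promoters with the widest ranges, 7 had 5 or more sites outside CCGG, and 6 of these were even along their sequence. Lines that lie far apart give sites of intermediate mean, so the choice by range partly sets the even form. Gm10287 had 95.8% in line 29, 5.04% in line 37, 15.7% in line 44 and 9.33% in line 45, and its sites outside CCGG had means of 24.0% to 39.3% over the lines. Line 29 alone was high. Gm11734 had 7.71% in line 29, 83.1% in line 37, 96.9% in line 44 and 69.3% in line 45, so there line 29 alone was low. Cpsf4l, a paralogue of a cleavage and polyadenylation factor, had 92.4% in line 29, 36.6% in line 37, 84.4% in line 44 and 15.2% in line 45. In the window printed above its 9 sites had means of 50.5% to 68.5%, and at the site 659 bp upstream the lines had 77.5%, 24.2%, 92.9% and 17.4%. Lines 29 and 44, of different library sets, were the high lines at Cpsf4l, as they were at Sncg, a synuclein, with 79.01% in line 29, 33.4% in line 37, 86.7% in line 44 and 9.58% in line 45, and at Ano2, a chloride channel, with 92.9% in line 29, 16.3% in line 37, 85.9% in line 44 and 23.2% in line 45. At Tmem72 line 29 was the highest with 91.2% in line 29, 17.01% in line 37, 45.7% in line 44 and 37.2% in line 45. Gm10660 had 6.73% in line 29, 88.5% in line 37, 66.3% in line 44 and 38.2% in line 45, an order in which line 37 was highest. The remaining widest ranges were at 1700054O05Rik (82.7 points, line 37 low), 4930522O17Rik (82.3 points, line 29 high) and Gm39822 (77.1 points, line 44 high).

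**Figure D5:**
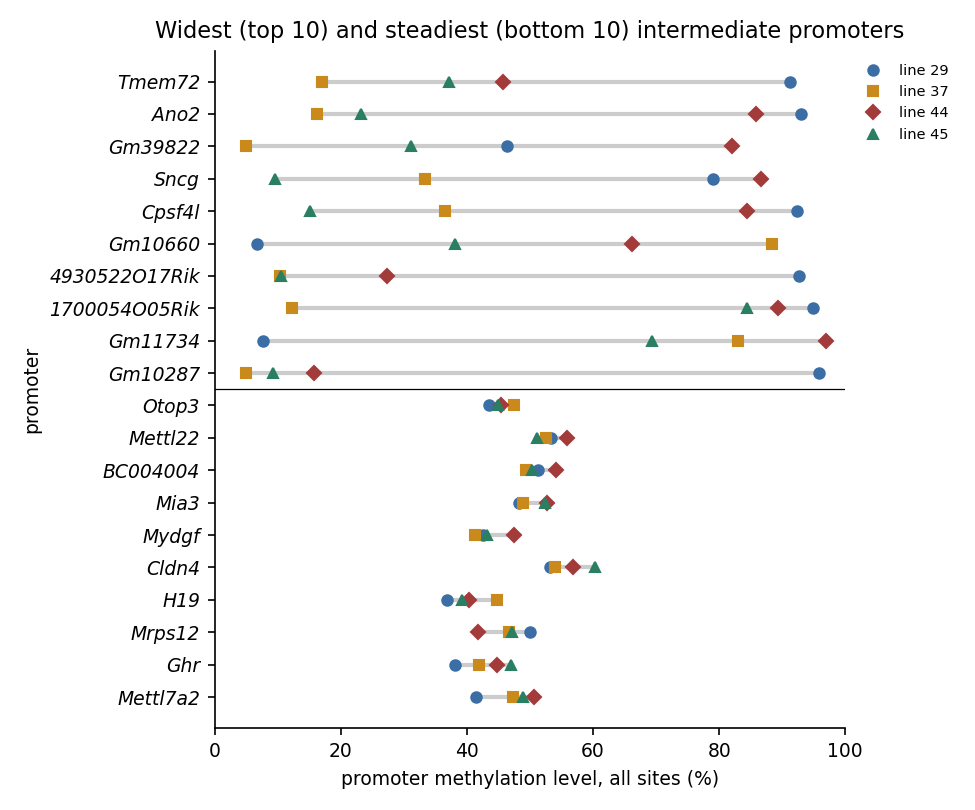
Promoter methylation level (%, all sites) in each of the 4 control-F1 lines for the 10 promoters with the widest range (top) and the 10 intermediate promoters with a mean of 40% to 60% and the smallest SD (bottom). Symbols are lines and grey bars the range. Gm10287 spans 5.04% to 95.8% and Otop3 43.5% to 47.4%.

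A line that stood more than 20 points from the mean of the other 3, where those lay within 10 points of each other, was rare. Line 29 was above at 4 promoters and below at 3, line 37 above at 5 and below at 6, line 44 above at 17 and below at 2, and line 45 above at 6 and below at 1. Outside CCGG line 44 was above at 17 and below at 1. The promoters furthest from the other lines were A530064D06Rik (48.3% in line 29, 94.9% in line 37, 96.4% in line 44 and 86.5% in line 45), Entpd3 and Gm28055 for line 29. For line 37 they were Mapk15, a MAP kinase (16.5% in line 29, 47.8% in line 37, 15.5% in line 44 and 12.9% in line 45), Gm47157 and Calml4, and for line 44 Gm47948 (17.9% in line 29, 19.4% in line 37, 72.8% in line 44 and 21.9% in line 45), S100z and Lrrc1. Lrrc1 had 0.513% in line 29, 0% in line 37, 41.3% in line 44 and 1.33% in line 45, with all sites in an island and outside CCGG, and only its line 44 was above 10%. For line 45 they were Cubn, the vitamin B12 receptor cubilin (23.4% in line 29, 32.8% in line 37, 24.96% in line 44 and 62.7% in line 45), A930007A09Rik and Csf3r, the receptor of granulocyte colony-stimulating factor (2.66% in line 29, 4.91% in line 37, 5.82% in line 44 and 26.2% in line 45).

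At the class limits the values were continuous. Just under 10% were Ttc28, Rbmxl2 and Hmgn2 (9.98%, 9.99% and 9.99%), and just above it Kcnk6, Cyp4f39 and Stx6 (10.002%, 10.01% and 10.01%), while the SDs between lines at these promoters were 1.53 to 3.77 points. Just under 80% were Hpca, Krt23 and Pnldc1 (78.9%, 78.9% and 79.4%), and just above it Cst6, Gm26544 and A530064D06Rik (80.6%, 80.9% and 81.5%).

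The control-F1 and ICSI-F1 lines did not differ beyond the spread between lines in the mean promoter level or the class shares. Averaged over promoters, the level reached 10.7% ± 1.66 in the control-F1 lines and 10.7% ± 1.32 in the ICSI-F1 lines (SD, n = 4 each), with p = 1 by an exact permutation test, two-sided, of which there were 70 arrangements. The share of low promoters per line was 77.5% ± 7.74 and 78.4% ± 5.73 (exact permutation p = 0.771), of intermediate promoters 18.6% ± 7.54 and 17.5% ± 5.70 (exact permutation p = 0.771), and of high promoters 3.90% ± 0.224 and 4.10% ± 0.171 (exact permutation p = 0.229). After Benjamini-Hochberg adjustment over these 4 tests the exact permutation p was 0.914 for high promoters and 1 for the others, and 0.0286 is the smallest p that 4 lines against 4 allow. A p that misses the threshold does not show that the groups were alike. Within library set 1 the ICSI-F1 mean level was higher by 0.317 points, and within set 2 the difference was −0.313 points. The share of high promoters was higher in ICSI-F1 lines by 0.275 points in set 1 and 0.137 points in set 2. With labels permuted within the library sets alone (36 arrangements), the exact permutation p was 0.167 for high, 0.556 for low and intermediate promoters and 1 for the mean level, where 0.0556 is the smallest possible. Of the 278 promoters high in control-F1 lines 276 were high by the mean of the ICSI-F1 lines, of 1191 intermediate ones 1040 were intermediate, 128 low and 23 high, and of 5809 low ones 5689 were low. The 2 high promoters that were intermediate in ICSI-F1 lines, named after their values were seen, were Olfr212 with an ICSI-F1 mean of 55.4% ± 15.9 and Unc93a2 with 78.1% ± 2.90, against 83.2% ± 16.1 and 84.1% ± 8.08 in control-F1 lines.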

How the data were processed

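RRBS libraries of 8 GS cell lines (Zymo-Seq RRBS kit, MspI) were sequenced as paired reads. Per the submitters' notes, which give the versions, and the methods, which name another methylKit version, the authors trimmed reads with Trim Galore 0.5.0 (RRBS, non-directional and paired options), mapped them to mm10 with Bismark 0.20.0 (non-directional), and used methylKit 1.16.0 to keep sites with 10 or more reads, drop the deepest, scale coverage between lines and unite sites measured in all lines without joining strands. The methods state that embryonic fibroblasts were removed on gelatin-coated plates from GS cell cultures collected for RNA, and whether this was done before DNA extraction is not given in the sources used here. The deposited values are methylated and unmethylated read numbers scaled by the authors, here a score rather than raw counts, so no count test or counting interval was used. The scaling leaves the percent methylated of a site unchanged apart from rounding, and hides the depth at which it was read. Promoters were the 1 kb upstream of starts in Ensembl release 87, and island context was the deposited one.

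Site levels were averaged per promoter and line with Python 3.11.15, pandas 2.3.3 and numpy 2.4.6. Sequence context came from GRCm38.p6, and biotypes and other starts from GENCODE M21. The 4 group measures were compared by exact two-sided permutation (scipy 1.17.1) with Benjamini-Hochberg adjustment. Each p sets the difference of the group means against those of all arrangements of the lines. Code was tested on simulated data. Nothing was tested between classes, since levels set them. Members, 14 gene lists and gene families were chosen with earlier results of these data known. Named promoters were the 12 highest named ones with all sites in islands (0 were found), the 10 widest ranges, the 10 steadiest from 40% to 60%, up to 6 high or intermediate members of each list (and up to 4 low ones of the germ cell, meiosis and stem cell lists), the 8 low ones without island sites and most sites, the 3 furthest from the other lines for each line, the 3 on each side of each limit, and H19, Meg3 and Dio3. Others are said to have been chosen after their values were seen, or illustrate a list. Alternatives varied site number, coverage, averaging, strands, chromosomes, distance, limits, lines, library sets and islands, and, after the values were seen, sites inside CCGG and permutation within library sets.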

Additional observations from a re-analysis of the deposited data

Results flagged for a closer look

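Among 109 groups of 4 control-F1 values, 14 had a line whose gap to the nearest other line, as a share of the range, passed Dixon's 95% critical value. Chance marks about 1 group in 20, the same rule marked 396 of all 7278 promoters (5.44%), and several of these promoters were named because a line stood apart. Line 37 stood apart at 7 of the 14. It was below the other lines at 1700054O05Rik (94.9% in line 29, 12.3% in line 37, 89.4% in line 44 and 84.4% in line 45), Taf4b, the germ cell TFIID subunit (7.11% in line 29, 5.28% in line 37, 7.22% in line 44 and 6.89% in line 45), Gm47157 (53.6% in line 29, 23.5% in line 37, 59.4% in line 44 and 54.7% in line 45) and Cd2, the T cell adhesion molecule (75.3% in line 37). It was above them at Mael, of transposon silencing (10.1% in line 37), Meg3, the imprinted noncoding RNA (40.3%), and Mapk15, a MAP kinase (47.8%). Line 29 was above the others at Gm10287 (95.8%) and at Gm28055 (35.1% in line 29, 8.40% in line 37, 7.53% in line 44 and 5.90% in line 45).

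Line 44 was above the others at Nr4a1, the immediate early receptor (2.11% in line 29, 2.12% in line 37, 5.28% in line 44 and 2.44% in line 45), Gm47948 (72.8%) and Lrrc1 (41.3%). Line 45 was above them at A930007A09Rik (0.781% in line 29, 0.211% in line 37, 2.16% in line 44 and 24.5% in line 45) and Csf3r, the cytokine receptor (26.2%). The gap was under 10 points at Taf4b, Mael and Nr4a1, all low by their mean, and over 20 points at the other 11. Whether cells of these lines differ or the libraries do was not tested, since each line had 1 library.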

How the results depend on the processing

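The share of high promoters depended on which sites were counted. It was 5.43% with 3 or more sites per promoter, 1.4998% with 10 or more, 3.52% with 20 or more and 2.83% with 30 or more scaled reads per site, 2.34% with strands joined, 2.33% within 500 bp of the start, 4.18% with limits of 20% and 70%, 2.11% outside CCGG, and 2.13% with all sites of the promoters still measured outside CCGG. The shares of low and intermediate promoters were 89.1% and 8.54% with strands joined, 91.9% and 3.97% with the wider limits, and 95.1% and 2.74% outside CCGG. With island sites alone they were 92.3% low, 7.68% intermediate and 0.0199% high, and with sites outside islands 57.9%, 33.7% and 8.37%. The share of promoters that all lines placed in 1 class was 79.2% with 30 or more scaled reads, 79.5% from summed reads, 81.2% with strands joined, 94.2% with the wider limits and 92.9% outside CCGG. Without each line in turn it was 76.2% to 82.7%, the median range 3.16 to 3.71 points, and the shares 77.4% to 82.0% low, 14.3% to 18.7% intermediate and 3.71% to 3.90% high. Fewer lines give a smaller range by construction.

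The difference in mean level, ICSI-F1 minus control-F1, was near 0 and turned negative with 10 or more sites (−0.122 points), 20 or more (−0.0548) or 30 or more scaled reads (−0.152), summed reads (−0.0856), strands joined (−0.113), sites outside CCGG (−0.225), all sites of those promoters (−0.0804) and library set 2 alone (−0.313). The share of low promoters differed by −0.0116 points outside CCGG and −0.955 in library set 1, where intermediate promoters differed by 0.680 points. Without each of the 8 lines in turn the differences were −0.469 to 0.608 points (mean level), −1.91 to 3.24 (low), −3.48 to 1.61 (intermediate) and 0.123 to 0.308 (high). Over all 80 values of 20 settings 22 turned in sign. In 36 of them the design allows an exact permutation p under 0.05, and 0 had one, the lowest being 0.143, with no adjustment and no other tool run. The others cannot pass it, as the smallest exact permutation p is 0.0571 without a line, 0.333 in a single library set and 0.0556 with labels permuted within sets. The share of high promoters reached that 0.0571 without control-F1 line 44. The cause of these turns was not tested. Of 77 named promoters that could be measured outside CCGG 19 changed class. No paired analysis was possible because lines of the groups share no replicate numbers, and the inferred library sets, added as strata after the data were seen, are in the report. The scaled reads limit single sites more than promoters.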
